A study of Macaca mulatta with 7 samples.

Results

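The 44 genes described here encode the chains of the collagens. They are all genes of the deposited whole-series table whose symbol has the form of a collagen chain (COL, a type number, A and a chain number), 44 of 18282 genes. The libraries were made from total RNA of sperm of rhesus macaques (Macaca mulatta), 3 animals of a group that the labels call Maltreated and 4 of a Control group, with 1 library per animal. All 7 samples passed through a PureSperm 40/80 density gradient before TRIzol extraction, and the animals were 5.67 to 5.78 years old in the Maltreated group and 5.72 to 5.92 in the Control group. The labels name no form of maltreatment and no further agent or treatment.

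Collagens are proteins of 3 polypeptide chains wound into a triple helix, which requires a glycine at regular steps along each chain (the Gly-X-Y repeat). Fibrillar types such as I, II, III and V form the cables of connective tissue, network types such as IV form the sheet of basement membranes, FACIT types (fibril-associated collagens with interrupted triple helices) sit on the surface of fibrils, and transmembrane types span the cell membrane with the helix outside. In the testis, type IV and type I chains are known from the wall of the seminiferous tubule, made by Sertoli and peritubular cells. By structural class the members comprise 11 fibrillar, 10 FACIT, 9 network, 5 beaded filament, 4 transmembrane and 2 multiplexin chains, 1 anchoring fibril chain and 2 others.

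The libraries held 5316383 to 30715268 sense counts, from reads on the strand a gene is annotated on, with the highest total in Maltreated 1 and the lowest in Control 4. The labelled cell type was checked against 10 sperm and spermatid genes, PRM1, PRM2, TNP1 and AKAP4 among them, whose summed level was 46255 to 98812 CPM (sense counts scaled to the library's total of sense counts) in Maltreated and 45816 to 60523 CPM in Control libraries. Markers of the cells that are known to make collagen were at 236 to 536 CPM in Maltreated and 223 to 474 CPM in Control libraries for 12 fibroblast and peritubular myoid genes. FBN1, the gene of fibrillin, gave 174 to 276 CPM of that sum in Maltreated and 166 to 412 CPM in Control libraries, and VIM gave 265 CPM in Maltreated 3. SPARC was at 1.497 to 4.82 CPM in Maltreated and 0.362 to 1.63 CPM in Control libraries and MYH11 at 6.82 to 16.1 CPM in Maltreated and 1.13 to 7.497 CPM in Control libraries. TAGLN went the other way, at 0 to 2.15 CPM in Maltreated and 1.22 to 16.0 CPM in Control libraries. Of the 6 tested genes of this list 3 were higher and 3 lower in Maltreated, and 0 passed an adjusted p of 0.05 (edgeR). DCN and LUM, the defining proteoglycans of fibroblasts, were at most at 0.752 CPM in any library. The 8 Sertoli and Leydig genes summed to 5.99 to 27.8 CPM in Maltreated and 5.83 to 25.4 CPM in Control libraries, with INSL3 at 0 in all 7, and most of it from WT1, AMH and CLU. Leukocyte markers, 10 genes, summed to 7.75, 50.8 and 1001 CPM in Maltreated 1 to 3 and to 6.19, 7.42, 37.0 and 682 CPM in Control 1 to 4, so that Maltreated 3 and Control 4 stood apart from the rest. The most abundant of these markers was CD68 in Maltreated 3, at 390.2 CPM, and CD74 in Control 4, at 502 CPM, with PTPRC at 72.6 CPM in Maltreated 3. Endothelial genes, 4 in the files and mostly VWF and TEK, summed to 16.7 to 36.01 CPM in Maltreated and 17.9 to 44.6 CPM in Control libraries. The 8 epithelial and accessory gland genes summed to 4.92 to 25.7 CPM in Maltreated and 17.3 to 286 CPM in Control libraries. Most of this was TGM4 and MSMB, except in Control 4. There KRT8 and KRT18 had 8.65 and 3.39 CPM, against 1.88 and 1.69 CPM for TGM4 and MSMB. Since the RNA is of bulk samples, fewer cells of a type and less RNA per cell cannot be told apart.

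Collagen transcripts were a small but measurable share of the sperm RNA, and 1 gene, COL25A1, supplied most of their deposited counts. Summed over the 44 members, the sense level was 838, 822 and 1413 CPM in Maltreated 1 to 3, against 1073, 1659.9, 1794.5 and 784 CPM in Control 1 to 4. The groups overlapped, with a mean of 1025 ± 337 CPM (SD, n = 3) in Maltreated and 1328 ± 479 CPM (SD, n = 4) in Control libraries, a log2 ratio of -0.37. COL25A1 made up 63.9, 74.6 and 74.9% of these counts in Maltreated 1 to 3 and 71.4, 78.8, 76.1 and 53.6% in Control 1 to 4. The other members together reached 209 to 355 CPM in Maltreated and 307 to 428 CPM in Control libraries. These deposited counts include repeated exon entries. Counted only as far as each distinct exon exceeded its lower neighbour, the 44 members summed to 425, 613 and 641 CPM in Maltreated 1 to 3. In Control 1 to 4 they summed to 500, 807, 773 and 705 CPM. Members other than COL25A1 gave 245, 297 and 296 CPM of this in Maltreated 1 to 3 and 264, 393, 339 and 561 CPM in Control 1 to 4. COL25A1 thus gave less than the others together in Maltreated 1, Control 1 and Control 4. No test was made of these sums, because the members were chosen together.

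By class, the 11 fibrillar chains came next to the transmembrane ones, with 156, 98.04 and 137 CPM in Maltreated 1 to 3, against 149, 178, 189 and 138 CPM in Control 1 to 4. The 10 FACIT chains had 59.3, 62.7 and 74.6 CPM in Maltreated 1 to 3, against 50.2, 90.4, 59.3 and 112 CPM in Control 1 to 4. Both classes overlapped between the groups, with the highest values in Control libraries. The other classes were low and uneven, as the beaded filament chains with 5.05, 0.325 and 42.7 CPM in Maltreated 1 to 3, against 1.93, 4.16, 2.499 and 42.5 CPM in Control 1 to 4, where Maltreated 3 and Control 4 alone were high.

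Every member had a sense count in at least 1 library, and 22 of the 44 had one in all 7. Between 30 members (Maltreated 2) and all 44 (Maltreated 1, the deepest library) were detected in a single library. The mean level over the 7 libraries was at least 10 CPM in 12 members and under 1 CPM in 10. Per length, as RPKM (counts on distinct exons per kilobase of exon and by library size), 15 members lay above the median gene of the series, at 1.503 RPKM, and COL25A1, at 58.4 RPKM, was in the 94.6th percentile of all genes. The next in the order per length were COL24A1 at 11.5, COL23A1 at 7.96, COL21A1 at 7.30 and COL5A2 at 4.71 RPKM. The chains best known from connective tissue lay lower, with COL1A1 at 2.54, COL3A1 at 1.24 and COL1A2 at 1.23 RPKM. This order did not hold for COL23A1 when each exon was counted only as far as it exceeded its lower neighbour. COL23A1 was then at 1.40 RPKM, below COL1A1 at 3.16, COL1A2 at 1.75 and COL3A1 at 1.69 RPKM. COL24A1 at 9.77, COL21A1 at 7.09 and COL5A2 at 4.91 RPKM stayed above these chains.

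**Figure D1:**
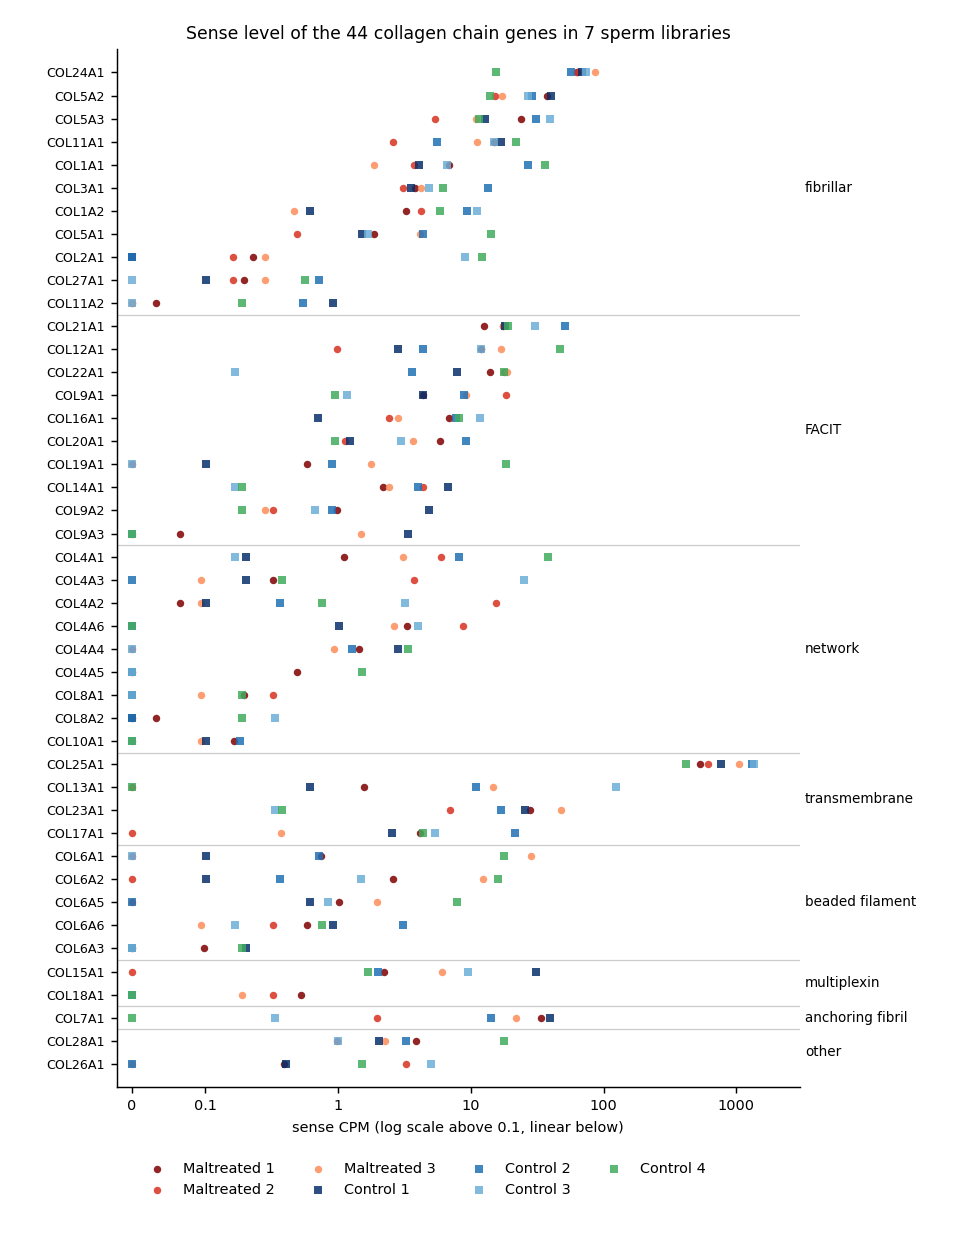
Sense CPM (horizontal axis, log scale above 0.1 CPM and linear below) of each collagen chain gene (rows, by structural class and mean level) in the 3 Maltreated (circles) and 4 Control libraries (squares). COL25A1 lies between 420.2 and 1366 CPM, to the right of every other member, and many members span more than 10-fold between libraries of 1 group.

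The levels varied widely from library to library. In 19 of the 44 members over 50% of the CPM summed over the 7 libraries came from a single library, as it did in 36.1% of all genes with a count. Counting all 44 members by their highest library, it was Control 4 for 12 members, Control 1 and Control 3 for 8 each and Control 2 for 7. It was Maltreated 2 and Maltreated 3 for 4 each and Maltreated 1 for 1. The same tally over all genes is not given here, so this one cannot be read as particular to collagen genes. COL19A1, a FACIT chain, had 84.5% of its summed CPM in Control 4, COL4A3, a basement membrane chain, had 84.1% in Control 3, and COL13A1, a transmembrane chain, had 81.7% in Control 3. The most even were COL24A1, COL5A2 and COL25A1, with 20.3, 22.2 and 22.5% in their highest library.

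The deposited exon counts show where in a gene such levels lie, and a read is counted on every exon it overlaps. Collagen genes consist of many short exons. The 1893 distinct exons of the 44 members had a median length of 63 bases, against 135 for the exons of all other genes, and 432 of them (22.8%) were 54 bases long, against 0.340% in other genes. Exons of a length divisible by 9, the bases of 1 Gly-X-Y triplet, made up 60.5% of collagen exons and 81.2% of those in fibrillar genes, against 12.9% in other genes. These lengths are the filed lengths plus 1, a step chosen because collagen exons then were mostly multiples of 9. The shares at multiples of 9 and at 54 bases depend on that choice and are no independent result. As filed, lengths divisible by 9 made up 2.80% of collagen exons and 1.90% of those in fibrillar genes, against 10.4% in other genes. Counts in runs, here at least 3 consecutive exons with the same count above 0, made up 12.8, 8.51 and 15.1% of collagen sense counts on distinct exons in Maltreated 1 to 3 and 17.3, 8.55, 14.3 and 8.59% in Control 1 to 4. Over all genes the shares were 0.561, 3.07 and 1.36% in Maltreated 1 to 3 and 1.51, 1.99, 3.31 and 6.02% in Control 1 to 4, below the collagen share in every library. With runs that add up to at least 500 bases the collagen share averaged 8.47% over the 7 libraries, against 12.2% for all runs, and in Control 4 it was then 4.28%, below the 4.45% of all genes. With runs of at least 3 counts per exon the collagen share was below that of all genes in Maltreated 2 (2.62 against 2.89%) and Control 4 (4.09 against 5.64%). Without COL25A1 the share in runs of any length and count averaged 25.03%, with 18.9 to 32.7% in Maltreated and 11.6 to 36.4% in Control libraries.

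**Figure D2:**
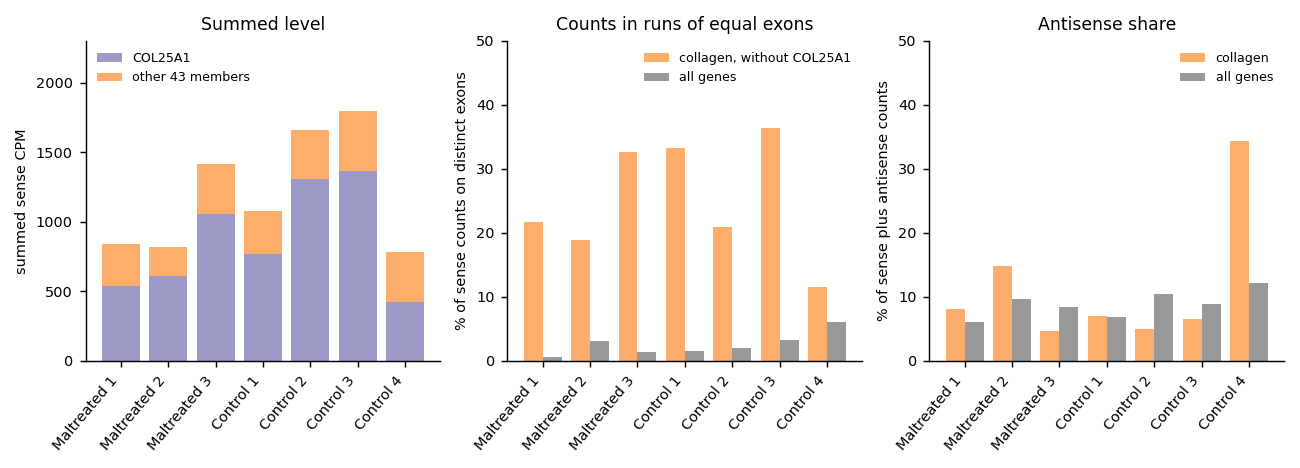
Summed collagen sense CPM (left, COL25A1 and the other members stacked), the share of sense counts on distinct exons that lie in runs of equal counts (middle, collagen genes without COL25A1 beside all genes) and the antisense share (right, collagen beside all genes), in Maltreated 1 to 3 and then Control 1 to 4. The run share of collagen genes is above that of all genes in all 7 libraries, and the antisense share stands out in Control 4 at 34.3%.

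COL25A1 encodes a transmembrane collagen that is shed into the extracellular space and is known from amyloid plaques in the brain and, in mice, from the innervation of muscle. The gene lies on chromosome 4 from 107651082 to 108166678 on the minus strand, in the coordinates of the deposited files, with 38 distinct exons. It had 536, 613 and 1058 CPM in Maltreated 1 to 3, against 766, 1309, 1366 and 420.2 CPM in Control 1 to 4. Control 2 and 3 were highest and Control 4 lowest, so the groups overlapped, and the log2 fold change was -0.45 ± 0.40 (SE; edgeR, adjusted p = 0.999). The deposited counts of this gene are sums over 91 exon entries of which 38 are distinct, so that its CPM counts some exons more than once, and on distinct exons it had 6283, 1610 and 4163 counts in Maltreated 1 to 3 and 2804, 2720, 2937 and 836 counts in Control 1 to 4. Of these, 0 to 2.15% lay in runs of equal counts. With runs of at least 2 exons the share was 0.0955 to 7.08% in Maltreated and 1.25 to 41.6% in Control libraries, highest in Control 4. Over all libraries 42.4% of the counts on distinct exons exceeded those of the lower neighbour. The log2 fold change was -0.74 without Maltreated 3, -0.22 without Control 3 and -0.71 without Control 4, and without both Control 4 and Maltreated 3 it was -1.002, while with each exon taken only as far as it exceeded its lower neighbour it was -0.12.

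The signal of COL25A1 began at the same exons in every library. Exons 5 to 7, numbered from the 5′ end and 3.58% of the exon bases, held 40.7, 64.0 and 30.1% of the counts in Maltreated 1 to 3 and 29.9, 38.6, 32.7 and 31.1% in Control 1 to 4. There were at most 12 counts on any of exons 1 to 4 and 74 to 433 on exon 5. The highest exon was exon 7 in Maltreated 1 to 3 and Control 1 to 3. In Control 4 it was exon 13, with 142 counts, against 74 to 102 on each of exons 5 to 7. Exon 38, the last and longest, made up 47.8% of the exon bases and held 37, 0 and 15 counts in Maltreated 1 to 3 and 8, 9, 0 and 0 counts in Control 1 to 4. The profile thus lay inside the gene, from exon 5 on, and left both annotated ends nearly empty. Over the 38 exons the rank correlation between 2 libraries had a median of 0.90 (0.66 to 0.94) over the 15 pairs without Control 4, and of 0.70 (0.53 to 0.94) over all 21 pairs. This is a description over exons of 1 gene, which share their lengths and neighbouring reads.

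In 3 further members the counts gathered on the same exons in most libraries. COL24A1, a minor fibrillar chain known in mice from developing bone, lies on chromosome 1 from 85624245 to 86016397 on the minus strand. It had 63.3, 63.1 and 86.9 CPM in Maltreated 1 to 3, against 68.7, 56.8, 74.0 and 15.4 CPM in Control 1 to 4. All libraries but Control 4 lay close together, and the log2 fold change was 0.35 ± 0.51 (SE; edgeR, adjusted p = 0.999), or 0.027 without Control 4 and -0.086 without Control 4 and Maltreated 3. Its exons 47 to 60, 40.4% of the exon bases at the 3′ end, held 74.8, 90.2 and 75.3% of the counts in Maltreated 1 to 3 and 75.6, 67.8, 66.7 and 19.5% in Control 1 to 4. In Control 4 the 82 counts fell on 4 of its 60 exons.

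COL5A2, the second chain of type V collagen, which is known to set the diameter of type I fibrils, lies on chromosome 2b from 76325962 to 76481695 on the minus strand. Its level was 37.6, 15.1 and 17.3 CPM in Maltreated 1 to 3, against 40.1, 29.1, 27.2 and 13.9 CPM in Control 1 to 4, and the groups overlapped (log2 fold change -0.27 ± 0.59, SE, with -0.85 without Maltreated 1 and -0.0068 without Control 1). Exons 1 to 7, 8.48% of the exon bases, held 88.4, 88.2 and 88.6% of its counts in Maltreated 1 to 3 and 86.1, 78.9, 69.3 and 100% in Control 1 to 4. The signal of COL5A2 was therefore at the 5′ end and that of COL24A1 at the 3′ end in most libraries. In Control 4 all 74 counts of COL5A2 were on exon 2, and in Control 3 the highest count was 74 on exon 7. COL5A2 was covered over all of its exon bases in Control 1, where the lowest exon had 1 count.

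COL21A1, a FACIT chain, lies on chromosome 6 from 56963554 to 57096548 on the minus strand. It had 12.6, 17.4 and 17.4 CPM in Maltreated 1 to 3, against 18.2, 50.8, 30.3 and 18.998 CPM in Control 1 to 4. Every Maltreated library was below every Control library, by a small margin to Control 1 and Control 4, and the log2 fold change of -0.94 ± 0.57 (SE) did not pass the test (edgeR, adjusted p = 0.999) and was -0.55 without Control 2. COL21A1 was the 1 of 25 tested members with such a separation, which 1.27% of all tested genes showed, and 0 members had every Maltreated library above every Control library, against 2.38% of all tested genes. Exons 19 to 21, 4.53% of the exon bases, held 45.3, 67.3 and 46.8% of the counts in Maltreated 1 to 3 and 46.9, 59.4, 68.7 and 89.1% in Control 1 to 4. The median rank correlation between libraries over the 29 exons was 0.65 (0.38 to 0.91, 21 pairs).

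**Figure D3:**
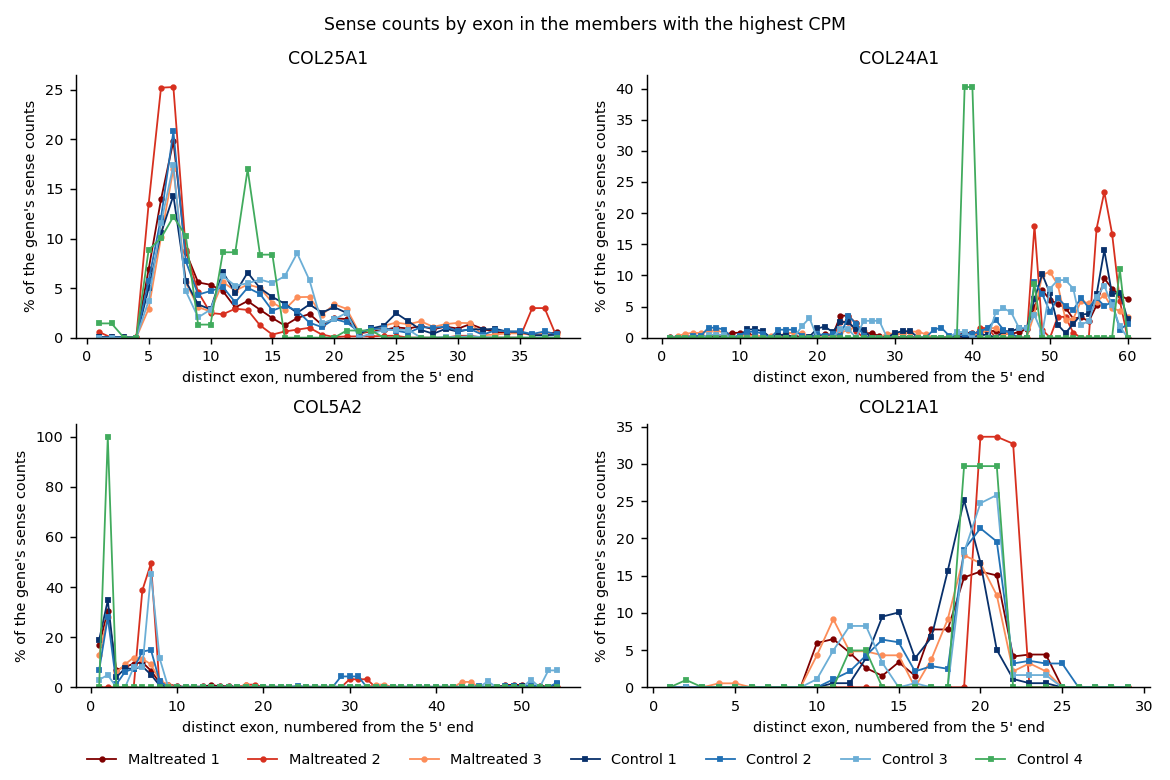
Share of the sense counts of a gene (vertical axis, %) on each of its distinct exons (horizontal axis, numbered from the 5′ end) for COL25A1, COL24A1, COL5A2 and COL21A1, with circles for Maltreated and squares for Control libraries. The highest exon of COL25A1 is exon 7 in every library but Control 4, where it is exon 13. Control 4 also departs from the others in COL24A1 and COL5A2.

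In other members neighbouring exons carried 1 repeated count, which is what a read that spans several of them adds to each. COL23A1, a transmembrane chain on chromosome 5 from 176425464 to 176792086, had 28.1, 6.98 and 48.0 CPM in Maltreated 1 to 3, against 25.5, 16.8, 0.333 and 0.376 CPM in Control 1 to 4. Across its exons 3 to 23 the count was 39 to 44, exactly 2 and exactly 24 on each exon in Maltreated 1 to 3, against 8 to 11, exactly 4, 0 and 0 in Control 1 to 4. Of its counts on distinct exons, 87.8% lay in runs. The 862 counts of COL23A1 in Maltreated 1 are thus the sum over exons of which none exceeded 44. The groups overlapped and the log2 fold change was 1.27 ± 1.27 (SE; edgeR, adjusted p = 0.999), with 0.67 without Maltreated 3 and 2.1996 without Control 1.

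COL13A1, a transmembrane chain of the neuromuscular junction on chromosome 10 from 62404600 to 62563318, had 1.56, 0 and 14.7 CPM in Maltreated 1 to 3, against 0.609, 10.9, 123 and 0 CPM in Control 1 to 4. Control 3 alone held 741 counts of COL13A1, which came to 144 on distinct exons, since its 207 exon entries describe 40 distinct exons. These carried 3 to 7 counts each and were covered over their full length. The log2 fold change of -2.75 ± 2.04 (SE; edgeR, adjusted p = 0.999) became 0.41 without Control 3.

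COL7A1, the chain of the anchoring fibrils that fix the skin to its basement membrane, has 118 distinct exons on chromosome 3 from 104323977 to 104355659. It had 33.9, 1.95 and 21.8 CPM in Maltreated 1 to 3, against 39.7, 14.1, 0.333 and 0 CPM in Control 1 to 4. Both groups held high and low libraries, with a log2 fold change of 0.44 ± 1.54 (SE), or -0.37 without Maltreated 1 and 1.98 without Control 1. Its exons were covered in full in Maltreated 1, Maltreated 3 and Control 1, where the lowest exon had 3, 1 and 3 counts. UCN2, the next gene on the same strand, carried 8 counts on each exon in Maltreated 1, 2 in Maltreated 3 and 3 to 4 in Control 1, beside medians of 8, 1 and 3 per exon of COL7A1. The medians of 2 further genes nearby on the same strand were higher, with 13, 11 and 4 counts per exon for UQCRC1 and 9, 3 and 5 for PFKFB4 in Maltreated 1, Maltreated 3 and Control 1.

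**Figure D4:**
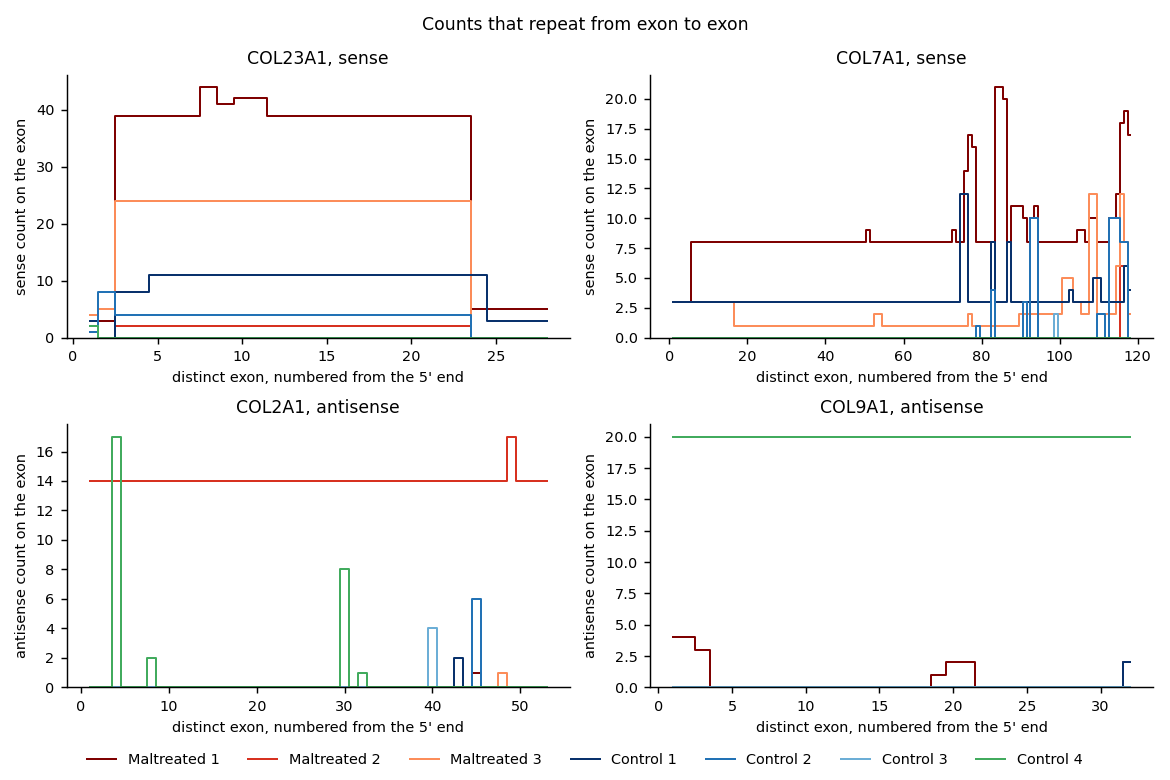
Counts (vertical axis) on each distinct exon (horizontal axis, numbered from the 5′ end) of COL23A1 and COL7A1 on the sense strand and of COL2A1 and COL9A1 on the antisense strand, 1 line per Maltreated (red) or Control library (blue, and green for Control 4). Long stretches of 1 repeated count appear, such as 24 in Maltreated 3 for COL23A1, 14 in Maltreated 2 for COL2A1 and 20 in Control 4 for COL9A1.

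COL5A3, another chain of type V collagen on chromosome 19 from 9778790 to 9830200, showed a repeated count with local signal above it. It had 24.0, 5.36 and 10.9 CPM in Maltreated 1 to 3, against 12.8, 30.9, 39.5 and 11.5 CPM in Control 1 to 4, and the groups overlapped (log2 fold change -0.83 ± 0.74, SE, with -1.62 without Maltreated 1 and -0.46 without Control 3). In 4 libraries it was covered in full, with a lowest exon of 7 counts in Maltreated 1, against 1, 3 and 1 in Control 2 to 4. On RDH8, a neighbour annotated on the other strand, reads of the same genomic strand reached a lowest exon of 7 in Maltreated 1, against 1, 3 and 1 in Control 2 to 4. The floor under COL5A3 was thus the same number as that on RDH8 in each of these 4 libraries, while OLFM2, its neighbour on the same strand, had a higher lowest exon, with 39 counts in Maltreated 1, against 3, 4 and 26 in Control 2 to 4. In Control 4 no exon of COL5A3 had more than 2 counts.

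Runs held more than 50% of the counts of 9 members, against 9.04% of all genes with at least 3 exons. Besides COL13A1 (89.7%), COL23A1 and COL7A1 (70.6%) they were COL4A3 (88.8%), COL4A2 (68.8%), COL6A1 (66.4%), COL8A1 (60%), COL9A3 (54.9%) and COL15A1 (50.7%). COL4A3 had 150 counts in Control 3, with 3 on nearly each of its 50 exons, and 0 to 23 counts in the other libraries. COL6A1, a beaded filament chain, had 303 counts in Maltreated 3, with 6 to 12 on each of its 34 exons, and 94 counts in Control 4, all on exon 5. In Maltreated 3, PCBP3, the next gene on the same strand, had at least 12 counts on each exon.

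Collagen genes were covered in full mostly at 1 to 3 counts per exon. Counting gene and library pairs with a sense count, 19 of 256 (7.42%) had at least 99% of the exon bases of a collagen gene covered, against 20.2% over all genes with at least 3 exons. The 19 pairs came from 14 genes, with 3, 0 and 3 of them in Maltreated 1 to 3 and 5, 3, 3 and 2 in Control 1 to 4. In 10 of them the lowest exon had 1 count and in 16 it had up to 3. COL9A3, a cartilage FACIT chain, was covered in full in Control 1 by 33 counts over 31 exons. COL2A1, the main chain of cartilage, was covered in full in Control 3 by 54 counts over 53 exons.

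In Control 4 the counts of many members were piled on 1 exon. Among members with at least 10 exons and 20 counts, 10 of 21 (47.6%) had over 50% of their counts on 1 exon in Control 4, against 35.3% of all such genes in that library. In Maltreated 1 to 3 this held for 0 of 28, 3 of 16 and 1 of 24 members, and in Control 1 to 3 for 1 of 19, 1 of 20 and 2 of 17. Over all such genes it held for 5.09 to 22.2% in Maltreated 1 to 3 and 8.65 to 19.3% in Control 1 to 3. Exon 5 of COL6A1 held all 94 of its counts in Control 4, exon 18 of COL6A2 held 83 of 85, exon 59 of COL22A1 held 89 of 94 and exon 28 of COL5A1 held 68 of 75. Control 4 also had the lowest total of sense counts and the second highest leukocyte marker level, and the part of either in these piles was not tested. The 12 members whose highest library was Control 4 include COL6A2, COL5A1, COL2A1 and COL12A1, whose counts there fell on 2 or 3 exons each.

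The type IV genes lie head to head in 3 pairs on opposite strands, and each pair is known in human and mouse for a shared promoter region. COL4A1 and COL4A2, the chains of nearly all basement membranes, are 132 bases apart on chromosome 13. COL4A1 had 34, 37 and 33 counts in Maltreated 1 to 3, against 2, 45, 1 and 204 counts in Control 1 to 4. COL4A2 had 2, 96 and 1 counts in Maltreated 1 to 3, against 1, 2, 19 and 4 counts in Control 1 to 4. The highest library was thus Control 4 for the one and Maltreated 2 for the other, and the partner gene had 4 counts in Control 4 and 37 in Maltreated 2. Of COL4A1 in Control 4, 95 of 204 counts were on exon 23.

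COL4A3 and COL4A4, chains of the specialised basement membranes of the kidney filter and inner ear, are 6 bases apart. COL4A4 had 44, 0 and 10 sense counts in Maltreated 1 to 3, against 28, 7, 0 and 18 in Control 1 to 4, and was at 0 in Control 3, where COL4A3 had its 150. COL4A5 and COL4A6 are 352 bases apart on chromosome X. COL4A5 had 15, 0 and 0 counts in Maltreated 1 to 3, against 0, 0, 0 and 8 counts in Control 1 to 4, while COL4A6 had 102, 54 and 28 counts in Maltreated 1 to 3, against 10, 0, 24 and 0 counts in Control 1 to 4. COL4A6 thus had counts in 4 libraries in which COL4A5 had none.

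The groups were then compared gene by gene, and no collagen chain gene passed the test. Of the 44 members 25 had enough counts to be tested, and 0 passed at an adjusted p of 0.05 (edgeR quasi-likelihood test, Benjamini-Hochberg over 10719 genes), as 0% of all tested genes did. At an unadjusted p under 0.05 edgeR called 0 members, against 1.78% of all tested genes. The DESeq2 Wald test called 0 members at an adjusted p of 0.05, against 0.028% of all genes, and 1 member, COL1A1, at an unadjusted p of 0.05, against 3.05%. Of the 25 tested members 17 had a negative log2 fold change of Maltreated over Control, against 51.3% of all tested genes, and 8 a positive one, against 48.7%. The median was -0.77 for the members and -0.02 for all tested genes, and it came to -0.41 without Control 4 and to -0.37 when each exon was taken only as far as it exceeded its lower neighbour. By class, 7 of 8 tested fibrillar chains, 4 of 7 FACIT chains, 3 of 4 transmembrane chains and 1 of 2 network chains had a negative log2 fold change.

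**Figure D5:**
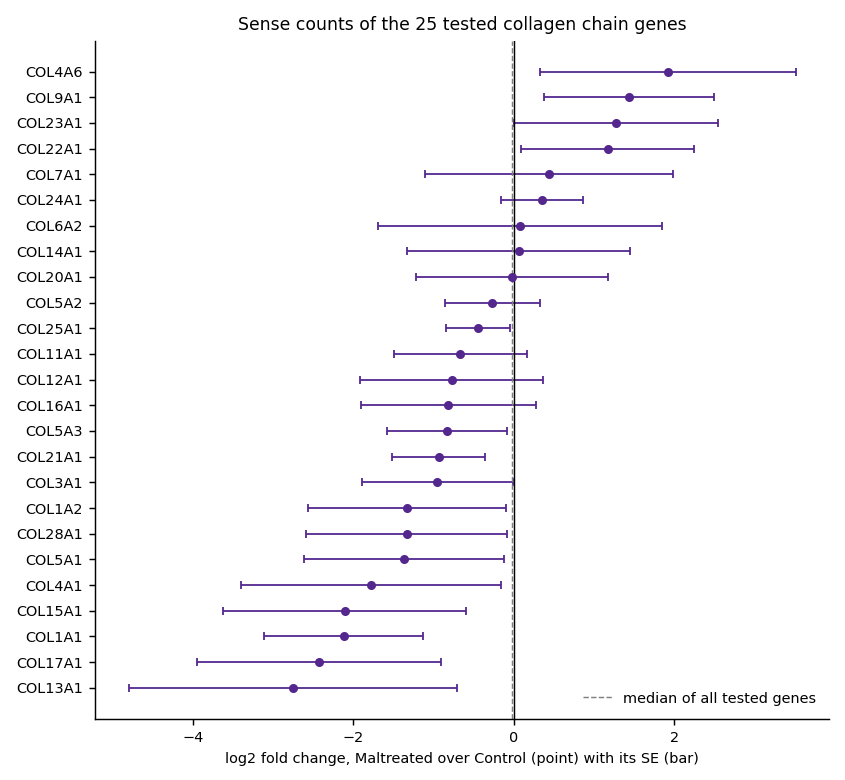
Log2 fold change of Maltreated over Control (horizontal axis, points with SE bars) for the sense counts of the 25 tested members, with the median of all tested genes as a dashed line. The points run from 1.92 (COL4A6) to -2.75 (COL13A1), and 0 of them passed the test at an adjusted p of 0.05.

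The 4 members with a negative fold change and the smallest unadjusted p were COL1A1, COL21A1, COL17A1 and COL15A1. COL1A1, the main chain of type I collagen on chromosome 17 from 42902238 to 42920140, had 6.87, 3.73 and 1.87 CPM in Maltreated 1 to 3, against 4.06, 26.8, 6.66 and 36.3 CPM in Control 1 to 4. Control 2 and Control 4 were high and the rest overlapped, and the log2 fold change was -2.12 ± 0.99 (SE; edgeR, unadjusted p = 0.0567, adjusted p = 0.999). Its counts were spread over exons rather than in runs (4.59% in runs), and exons 41 to 51, 48.5% of the exon bases, held 42.2, 39.1 and 20% of them in Maltreated 1 to 3, against 22.5, 54.1, 12.5 and 62.2% in Control 1 to 4. This was above the share of bases only in the 2 libraries with a high level. COL1A2 and COL3A1, the partner chains of the same fibrils, had log2 fold changes of -1.33 ± 1.23 and -0.95 ± 0.94 (SE).

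COL17A1, a transmembrane chain of the hemidesmosome, had 4.13, 0 and 0.374 CPM in Maltreated 1 to 3, against 2.54, 21.7, 5.33 and 4.33 CPM in Control 1 to 4. Control 2 alone was high, with each of the 52 exons covered and 2 to 11 counts on each, and Control 1 lay below Maltreated 1. The log2 fold change was -2.43 ± 1.52 (SE; edgeR, adjusted p = 0.999), with -5.38 without Maltreated 1 and -1.39 without Control 2. COL15A1, a multiplexin of the basement membrane zone, had 2.21, 0 and 6.08 CPM in Maltreated 1 to 3, against 30.97, 1.99, 9.496 and 1.69 CPM in Control 1 to 4. Control 1 was high, with 7 to 11 counts on each of 42 exons, and TGFBR1, a neighbour on the same strand, had a lowest exon of 7 in the same library. The log2 fold change of COL15A1 was -2.11 ± 1.52 (SE), with -3.29 without Maltreated 3 and -0.75 without Control 1, and it was -0.31 when each exon was taken only as far as it exceeded its lower neighbour.

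The 4 members with a positive fold change and the smallest unadjusted p were COL9A1, COL4A6, COL22A1 and COL23A1, the last described above. COL9A1, a FACIT chain of cartilage fibrils, had 4.33, 18.3 and 9.17 CPM in Maltreated 1 to 3, against 4.37, 8.86, 1.17 and 0.940 CPM in Control 1 to 4. Its exons 28 to 32, the last and 50.9% of the exon bases, held 66.9, 60.2 and 53.1% of these counts in Maltreated 1 to 3, against 51.2, 42.9, 0 and 0% in Control 1 to 4. Maltreated 1 lay just below Control 1 and Control 2 inside the Maltreated range, and the log2 fold change was 1.44 ± 1.06 (SE; edgeR, adjusted p = 0.999), with 0.705 without Maltreated 2 and 2.23 without Control 2. COL4A6, a chain of the basement membranes of smooth muscle, had 3.32, 8.76 and 2.62 CPM in Maltreated 1 to 3, against 1.02, 0, 4.00 and 0 CPM in Control 1 to 4. Control 3 fell within the Maltreated range, and the log2 fold change was 1.92 ± 1.59 (SE), with 1.15 without Maltreated 2 and 3.65 without Control 3. In Maltreated 2 all counts of COL4A6 lay on exon 5, 27 on distinct exons that come to 54 over repeated exon entries.

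COL22A1, a FACIT chain of the junction of muscle and tendon, had 13.9, 17.7 and 18.8 CPM in Maltreated 1 to 3, against 7.82, 3.62, 0.167 and 17.7 CPM in Control 1 to 4. Control 4 alone reached the Maltreated level, with 89 of its 94 counts on 1 exon, and the log2 fold change was 1.17 ± 1.08 (SE; edgeR, adjusted p = 0.999), or 2.03 without Control 4 and 0.77 without Control 3. COL22A1 lies on chromosome 8 from 137571592 to 137893404 on the minus strand in the coordinates of the files. In Maltreated 1 its 427 counts covered 70.4% of the exon bases, and 12.4% of its counts over all libraries lay in runs. Leukocyte markers were high in Control 4 and Maltreated 3 only, and their part in these values was not tested.

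The remaining 9 tested members had log2 fold changes from -1.78 ± 1.62 (COL4A1) to 0.08 ± 1.77 (COL6A2), with SEs of 0.83 to 1.77. The 19 members that were not tested had too few counts in most libraries. Some of them were high in 1 library only, such as COL4A3, COL4A2 and COL19A1. The lowest were COL18A1, with 16, 2 and 2 sense counts in Maltreated 1 to 3 and 0 in every Control library, and COL8A1, COL8A2, COL10A1 and COL6A3, each with at most 6 counts in a library. COL11A2 had 1, 0 and 0 counts in Maltreated 1 to 3, against 9, 3, 0 and 1 in Control 1 to 4, and COL27A1 had 6, 1 and 3 counts in Maltreated 1 to 3, against 1, 4, 0 and 3 in Control 1 to 4. At such counts a difference was not detectable.

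Reads on the strand opposite to the annotated one (antisense) were counted on every collagen gene in at least 1 library. They made up 8.05, 14.8 and 4.74% of sense plus antisense collagen counts in Maltreated 1 to 3, against 7.09, 5.02, 6.61 and 34.3% in Control 1 to 4. Over all genes the antisense share was 6.15 to 12.1% in the 7 libraries, so that the collagen share stood above this range in Maltreated 2 and Control 4 and below it in Maltreated 3 and Control 2. The group means were 9.20 ± 5.13% (SD, n = 3) in Maltreated and 13.3 ± 14.1% (SD, n = 4) in Control libraries, a difference of -4.06 percentage points that was 2.96 without Control 4. Of the collagen antisense counts on distinct exons 50.7 to 88.4% lay in runs of equal counts, against 37.8 to 69.0% over all genes. The collagen share was the higher one in 4 libraries and the lower one in Maltreated 3 (54.4 against 56.9%), Control 3 (59.0 against 64.4%) and Control 4 (50.7 against 56.1%). Antisense counts outnumbered sense counts in 11 of 44 members. The share of all genes for which this held is not given here, so the count cannot be read as particular to collagen genes.

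COL25A1 had the most antisense counts, with 415, 0 and 202 in Maltreated 1 to 3, against 74, 54, 405 and 285 in Control 1 to 4. They were 2.47% of its sense plus antisense counts, and Maltreated 2 had none. COL18A1, a multiplexin whose end fragment is endostatin, had 321, 0 and 85 antisense counts in Maltreated 1 to 3, against 0, 154, 0 and 308 in Control 1 to 4, beside 20 sense counts in all. Its median exon carried 4 and 1 antisense counts in Maltreated 1 and 3, against 2 and 4 in Control 2 and 4. SLC19A1, a gene of the opposite strand next to COL18A1, had medians of 4 and 1 sense counts in Maltreated 1 and 3, against 2 and 4 in Control 2 and 4. The median antisense count of COL18A1 was thus the same as the median sense count of its neighbour in these 4 libraries.

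COL2A1 had 1, 745 and 1 antisense counts in Maltreated 1 to 3, against 2, 6, 4 and 28 in Control 1 to 4. In Maltreated 2 each of its 53 exons carried 14, apart from 1 exon with 17. TMEM106C, a neighbour on the opposite strand, had a median of 9 and at most 32 sense counts per exon in the same library, and on SENP1, the neighbour on the other side, reads of the same genomic strand had a median of 0 and at most 14 per exon. COL9A1 had 18, 0 and 0 antisense counts in Maltreated 1 to 3, against 2, 0, 0 and 640 in Control 1 to 4. In Control 4 each of its 32 exons carried exactly 20, while COL19A1, its neighbour on the opposite strand, had 0 sense counts on most exons and at most 48 on an exon. COL4A4 was 1 of 5 members with antisense counts in every library, with 88, 72 and 91 in Maltreated 1 to 3, against 97, 1, 9 and 10 in Control 1 to 4.

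The antisense counts were compared between the groups in the same way, and again no member passed. Of the 44 members 13 were tested, and 0 passed at an adjusted p of 0.05 (edgeR), as 0% of 4382 tested genes did, and 0 had an unadjusted p under 0.05, against 2.51%. By the DESeq2 Wald test 0 members passed, against 0.297% of all tested genes, and 1 member, COL23A1, had an unadjusted p under 0.05, against 4.84%. There were 10 members with a negative log2 fold change, against 54.1% of all tested genes, and 3 with a positive one, against 45.9%. No member had every Maltreated library above every Control library (2.97% of all tested genes) or below it (1.26%). The median was -1.73 for the members and -0.13 for all tested genes, and it was -0.63 without Control 4. The values ran from -3.35 ± 1.86 (SE, COL23A1) to 1.18 ± 1.44 (SE, COL4A4), with -1.36 ± 1.504 for COL25A1 and -1.31 ± 2.12 for COL18A1. With 1 library left out the value of COL25A1 lay between -2.01 (without Maltreated 3) and -0.605 (without Control 3), and that of COL18A1 between -1.81 (without Maltreated 1) and -0.46 (without Control 4).

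Genes that make, bind or cleave collagen were counted beside the chains. Of 33 enzymes and chaperones of collagen synthesis and processing 28 are named in the files and 17 were tested, of which 6 had a positive and 11 a negative log2 fold change and 0 passed. P4HB, the common subunit of prolyl hydroxylase, had 9.25, 0.487 and 28.3 CPM in Maltreated 1 to 3, against 8.94, 32.2, 7.66 and 68.1 CPM in Control 1 to 4. The groups overlapped, with a log2 fold change of -1.27 ± 1.12 (SE; edgeR, adjusted p = 0.999) that was -2.52 without Maltreated 3 and -0.45 without Control 4. ADAMTS2, the N-proteinase of fibrillar procollagens, had 2.54, 0.162 and 1.68 CPM in Maltreated 1 to 3, against 0.609, 5.43, 0 and 16.4 CPM in Control 1 to 4. Control 4 was high, and the log2 fold change was -1.91 ± 1.70 (SE), or -0.46 without Control 4.

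Some collagen receptors and collagen-cleaving enzymes were high in 1 Maltreated library, and other receptors were highest in Control 4. Of 10 receptors 5 were tested, 3 with a positive and 2 with a negative log2 fold change, and 0 passed. The 10 receptors summed to 31.8, 15.7 and 110 CPM in Maltreated 1 to 3, against 30.1, 12.8, 16.8 and 72.8 CPM in Control 1 to 4. ITGA1, ITGA10 and GP6 were highest in Control 4, at 19.6, 20.5 and 20.3 CPM. ITGB1, ITGA2 and LAIR1 were highest in Maltreated 3, at 63.1, 3.18 and 23.5 CPM. ITGB1, the beta chain of the collagen-binding integrins, had 2.77, 1.62 and 63.1 CPM in Maltreated 1 to 3, against 1.73, 3.62, 0.9995 and 1.69 CPM in Control 1 to 4. Its log2 fold change of 3.37 ± 1.24 (SE; edgeR, unadjusted p = 0.0211, adjusted p = 0.999) was 0.15 without Maltreated 3. DDR1, a receptor tyrosine kinase for collagen, had 3.39, 8.12 and 2.99 CPM in Maltreated 1 to 3, against 3.15, 0.904, 0.333 and 0.376 CPM in Control 1 to 4. Its log2 fold change was 1.95 ± 1.22 (SE), with Control 1 inside the Maltreated range, and was 1.29 without Maltreated 2 and 3.14 without Control 1.

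Of 7 collagenases and gelatinases 3 were tested, all with a positive log2 fold change, and 0 passed. MMP9, a gelatinase of neutrophils and macrophages, had 1.14, 3.08 and 152 CPM in Maltreated 1 to 3, against 0.508, 0, 11.2 and 0.188 CPM in Control 1 to 4. Maltreated 3 was far above all others, and the log2 fold change of 4.00 ± 1.83 (SE; edgeR, adjusted p = 0.999) was -0.49 without it. CTSK, the collagen-cleaving cathepsin of osteoclasts and macrophages, had 1.99, 10.7 and 54.3 CPM in Maltreated 1 to 3, against 3.25, 1.81, 2.33 and 0.188 CPM in Control 1 to 4. Its log2 fold change was 3.42 ± 1.20 (SE; edgeR, unadjusted p = 0.0166, adjusted p = 0.999), and 1.72 without Maltreated 3. The 7 enzymes summed to 306 CPM in Maltreated 3 and to 13.0 CPM in Control 4. Leukocyte markers were at 1001 CPM in Maltreated 3, at 7.75 and 50.8 CPM in Maltreated 1 and 2 and at 682 CPM in Control 4. The sums of Maltreated 3 and Control 4 differ in make-up, with CD68 at 390 and 18.4 CPM and CD74 at 265 and 502 CPM. The part of leukocytes in the enzyme values was not tested.

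The other components of basement membranes, 15 genes of laminins, nidogens, perlecan and agrin, summed to 124, 112 and 89.1 CPM in Maltreated 1 to 3, against 70.9, 73.8, 83.6 and 129 CPM in Control 1 to 4. Of 10 tested genes 5 had a positive and 5 a negative log2 fold change, and 0 passed. LAMB2, a laminin beta chain, had 22.2, 8.12 and 5.52 CPM in Maltreated 1 to 3, against 3.86, 5.07, 0.833 and 6.21 CPM in Control 1 to 4 (log2 fold change 1.59 ± 0.97, SE, or 0.74 without Maltreated 1). LAMA5, a laminin alpha chain, had 1.82, 0 and 0.561 CPM in Maltreated 1 to 3, against 2.03, 0.362, 2.83 and 15.8 CPM in Control 1 to 4 (log2 fold change -2.64 ± 1.65, SE, with -4.16 without Maltreated 1 and -1.13 without Control 4). The groups overlapped for both. The 9 network collagens include the type IV chains of these membranes. By class they summed to 7.13, 34.4 and 7.02 CPM in Maltreated 1 to 3, against 4.47, 9.95, 32.7 and 44.8 CPM in Control 1 to 4. Most of the sum was COL4A3 in Control 3 and COL4A1 in Control 4. In Maltreated 2 it was spread over COL4A2 with 15.6, COL4A6 with 8.76 and COL4A1 with 6.01 CPM and others.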

How the data were processed

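The authors deposited, per the file headers, a table of read counts per gene, library and strand sense with the fraction of each gene's bases that reads covered. They also deposited, per library and strand, counts and covered fractions of single exons. The submitters' processing notes name STAR, featureCounts and bedtools; versions, roles and genome build are not given in the sources used here. A gene's deposited count is the sum over its exon entries, so a read on several exons counts several times; 2255 collagen entries hold 1893 distinct exons. Exon length was taken as the filed length plus 1. The labels number separate animals, and p-values measure the spread between these libraries.

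Sense and antisense counts were each tested over all genes (R 4.3.3, edgeR 4.0.16, quasi-likelihood, TMM, genes kept by filterByExpr with a count minimum of 10 and a total of 15, Benjamini-Hochberg adjustment, threshold 0.05), with DESeq2 1.42.0 as an alternative. CPM relates counts to all sense (or antisense) counts of a library. A run is at least 3 consecutive distinct exons with the same count above 0. In the alternative that sets aside spanning reads, each exon keeps only its excess over its lower neighbour. Libraries held 5316383 to 30715268 sense counts, and low counts carry the largest counting error.

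The members, gene lists and tests were chosen with earlier results of these data known. Described in full are the 8 members with the highest mean sense CPM, the 4 tested members in each direction with the smallest unadjusted p, the 4 with the most antisense counts and, of each other list, the 2 tested genes with the smallest p and, for marker lists, the 2 most abundant. Other members are named after their values were seen.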

Additional observations from a re-analysis of the deposited data

Results flagged for a closer look

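In the 4 Control libraries, 24 sets of values (members' levels and the collagen measures) were examined for a single outlying library. Its gap to the nearest other had to exceed Dixon's 95% critical value, and 4 sets met this. The genes among the sets were chosen by level, p or antisense counts in these same libraries. A rate of about 1 in 20 by chance alone therefore does not hold for them. COL13A1 stood at 123 sense CPM in Control 3, against 0 to 10.9 CPM in the other Control libraries. COL17A1 stood at 21.7 sense CPM in Control 2, against 2.54 to 5.33 CPM in the others. COL9A1 stood at 872 CPM of all antisense counts in Control 4, against 0 to 2.76 CPM in the others. The antisense share of the collagen counts was 34.3% in Control 4, against 5.02 to 7.09% in the others. In each of the 3 genes the library that stood out had nearly the same count on every exon, 3 to 7 in COL13A1, 2 on most exons of COL17A1 and 20 in COL9A1. The 640 antisense counts of COL9A1 are part of the antisense share of Control 4, so these 2 results are not independent of each other.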

How the results depend on the processing

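No collagen gene passed an adjusted p of 0.05 in sense or antisense counts under any alternative run (DESeq2 size factors, DESeq2 Wald test, no filter, distinct exons, count above the lower neighbour, each library left out, or Control 4 and Maltreated 3 left out together); 23 to 44 members were tested for sense and 5 to 44 for antisense counts, and the smallest adjusted p was 0.332 (antisense, no filter). Of 24 log2 fold changes of named genes, 16 of them of collagen genes (sense or antisense), with 330 alternative values, 6 changed sign, in 9 values. The log2 fold change of COL24A1 was -0.086, of COL7A1 -0.027 and of MMP9 -0.91 without Control 4 and Maltreated 3, and that of COL7A1 was -0.10 with the count above the lower neighbour. Leaving out single libraries gave -5.27 to 0.41 for COL13A1 (0.41 without Control 3), -0.37 to 1.98 for COL7A1 (-0.37 without Maltreated 1) and -0.49 to 4.56 for MMP9 (-0.49 without Maltreated 3). Leaving out 1 library moved the log2 ratio of the summed level between -0.68 and -0.19, the difference in antisense share between -6.87 and 2.96 percentage points, and the run share between 11.3 and 12.8%. The antisense difference was 5.19 percentage points without Control 4 and Maltreated 3. The run share of 12.2% was 22.6% with runs of at least 2 exons, and 8.47% with runs of at least 500 bases and 25.03% without COL25A1, both chosen after seeing the data. Causes of these changes were not tested.

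The labels do not say whether the replicate numbers pair the libraries. Same-numbered deviations correlated at 0.0749, 0.00993 and -0.0194, and 1 of 3 Maltreated libraries correlated best with its own number. With 3 such pairs and libraries this variable, these values cannot decide the question. With the replicate block 0 members were called in sense and 0 in antisense counts, with ADAMTS2 at 1.18 and COL18A1 antisense at 5.50. The libraries' depth, from 5316383 to 30715268 sense counts, limits what members with few counts can show.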
